A study of Mus musculus with 10 samples.

Results

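Voltage-gated calcium channels open when the cell membrane depolarises and let calcium into the cytosol. Each channel has a pore-forming α1 subunit, which sets the type of current, and high-voltage channels carry in addition an intracellular β subunit and an extracellular α2δ subunit that bring the channel to the membrane and tune its gating. In cardiomyocytes the L-type pores provide the calcium influx that triggers contraction, while the T-type pores open at more negative voltages and are known for their part in pacemaking and in the embryonic heart. The 9 genes examined here are the L-type pores Cacna1c (Cav1.2) and Cacna1d (Cav1.3), the T-type pores Cacna1g (Cav3.1) and Cacna1h (Cav3.2), the β subunits Cacnb1, Cacnb2 and Cacnb3, and the α2δ subunits Cacna2d1 and Cacna2d2. They were taken from the array by name: a gene was read from the brightest row that names it and no other gene. A row of its own was found for 8 of the 9 genes, among 19938 genes represented in this way, and Cacnb3 was not analysed here.

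Affymetrix Mouse Gene 1.0 ST arrays, which give for each gene a summary of probes along its exons, were used to measure transcripts in hearts of mouse embryos at E10.5. CAR KO embryos (5 samples) lack the coxsackievirus and adenovirus receptor CAR in all cells through the germline allele B6.Cg-Cxadr tm1/Fgr (CAR -/-), and WT embryos (5 samples) are CAR +/+; both came from heterozygous breeding. Every sample was a pool of 3 hearts that received no treatment, and the labels do not say whether samples of a genotype came from separate litters, so that p-values here measure the spread between pools. The comparison bears on whether the channels that admit calcium are transcribed at another level in hearts without CAR. The study examined beating and calcium cycling in cells cultured from other hearts.

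All values are log2 signals, on which 1 unit is a 2-fold difference, and differences are CAR KO minus WT. Signals of different probe sets are not on a common scale, so levels of different genes are not ranked. The arrays had medians between 7.65 and 7.73, and a gene was called above background when its mean exceeded 6.50, the level below which 95% of olfactory and vomeronasal receptor rows lay. Cxadr, the deleted gene, gave 6.69, 6.56, 6.37, 6.47 and 6.23 in CAR KO samples 1 to 5, against 8.28, 8.25, 8.46, 8.66 and 8.24 in WT samples 1 to 5 (log2 fold change -1.91, standard error 0.10, adjusted p = 1.40e-05 in limma). Since 3 of the 5 CAR KO samples were below background, the fold is a bound: with these samples set to the background level, Cxadr was at least 3.55-fold lower in CAR KO hearts. The cardiomyocyte markers examined, 16 of 16, were above background, and their mean lay between 12.63 and 13.01 in CAR KO and between 12.73 and 13.00 in WT hearts. Sample 5 of each genotype was the lowest in this mean, 0.34 below the other CAR KO samples and 0.24 below the other WT samples. Transcripts of liver and yolk sac varied most between samples, with list means of 6.97 to 10.14 in CAR KO and 7.44 to 9.24 in WT hearts.

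Regulatory sequence is shown for the genes on which the later results turn: Cacna1d and Cacna2d2, whose signals followed each other across samples, and Cacna2d1, the α2δ gene with the lowest p between genotypes. The windows are the 250 bases before an annotated transcription start in RefSeq (GRCm38.p6), read 5′ to 3′ on the strand of the gene. Capitals mark matches on either strand to the GC box bound by SP1 (GGGCGG), to the pentamer CCAAT bound by NF-Y, to the TATA box (searched as TATAAA) and to the MCAT element bound by TEAD factors (searched as CATTCC). There are 2 such windows for Cacna1d, at chr14:30353487-30353736 and chr14:30491157-30491406, both on the minus strand. The windows of Cacna2d2 (chr9:107399630-107399879) and Cacna2d1 (chr5:15934441-15934690) are on the plus strand.
Cacna1d, downstream start: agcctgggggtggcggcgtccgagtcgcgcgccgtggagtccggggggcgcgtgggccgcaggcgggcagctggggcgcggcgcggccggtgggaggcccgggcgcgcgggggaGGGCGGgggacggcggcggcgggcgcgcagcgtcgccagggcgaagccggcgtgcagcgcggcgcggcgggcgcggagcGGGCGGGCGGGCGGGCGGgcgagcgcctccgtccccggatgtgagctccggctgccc
Cacna1d, upstream start: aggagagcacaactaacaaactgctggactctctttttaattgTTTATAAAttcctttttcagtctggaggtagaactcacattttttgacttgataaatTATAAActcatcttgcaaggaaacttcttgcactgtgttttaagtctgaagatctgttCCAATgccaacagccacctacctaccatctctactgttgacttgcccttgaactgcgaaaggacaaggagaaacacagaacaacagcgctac
Cacna2d2: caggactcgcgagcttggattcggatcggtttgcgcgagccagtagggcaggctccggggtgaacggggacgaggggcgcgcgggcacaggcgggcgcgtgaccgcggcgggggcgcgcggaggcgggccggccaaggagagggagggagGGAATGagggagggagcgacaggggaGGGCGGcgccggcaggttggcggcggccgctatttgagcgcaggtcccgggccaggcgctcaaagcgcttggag
Cacna2d1: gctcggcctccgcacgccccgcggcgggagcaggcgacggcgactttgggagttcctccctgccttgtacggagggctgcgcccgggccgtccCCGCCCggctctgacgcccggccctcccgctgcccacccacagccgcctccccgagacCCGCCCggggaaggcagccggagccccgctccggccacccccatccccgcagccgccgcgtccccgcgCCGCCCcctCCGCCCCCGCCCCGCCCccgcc

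The window at the downstream start of Cacna1d is 86.4% G and C and holds 5 GC boxes, 4 of them in 1 run of matches that each overlap the next, 45 to 57 bases before the start. The other Cacna1d window is 39.6% G and C and holds 1 CCAAT box and 3 TATA box matches, 2 of which overlap. The Cacna2d2 window is 74.4% G and C, with 1 GC box and 1 MCAT element. Cacna2d1 has 82.4% G and C and 6 GC boxes. Over all 32851 windows in the table the median G and C content is 52.4%, and a GC box is present in 32.7%, a CCAAT box in 33.8%, a TATA box in 12.4% and an MCAT element in 12.6% of them. The search also covered the GATA factor site AGATAA (9.99% of all windows), the NKX2-5 site TNAAGTG (10.1%), the MEF2 site (3.2%), the cyclic AMP response element TGACGTCA (1.55%) and the E-box CANNTG (66.2%, not capitalised). Of the first 4 of these, none matched in the windows shown. In all, 7 of the 9 genes had 13 windows, and these matches are descriptions of letters, not of occupied sites.

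None of the 8 measured channel genes differed between CAR KO and WT hearts at an adjusted p under 0.05 in limma. The share of all 28944 rows that passed was 0.00345%, which is Cxadr alone. At an unadjusted p under 0.05 stood 1 of the 8, Cacna2d1, lower in CAR KO hearts, where 2.4% of all rows were under it and 1.43% were lower. The samples of the genotypes overlapped for all 8 genes, and 0.359% of rows did not overlap. The log2 fold change was above 0 for 4 genes and below 0 for 4, with a median of 0.0071 beside 0.0074 over all genes. Missing the threshold does not make levels equal, so the 95% interval of each difference was set against fixed limits. That interval stayed inside 1.5-fold up or down for 7 of the 8 genes (97.1% of all genes above background), and inside 1.2-fold for Cacna1h, Cacnb1 and Cacnb2 (63.9%). The exception to the wider limit was Cacna1g. Cacnb2 is counted here and below, although whether its row reads the coding transcript was not tested. The hearts were measured whole, where fewer cells of a type and less RNA per cell cannot be told apart.

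**Figure D1:**
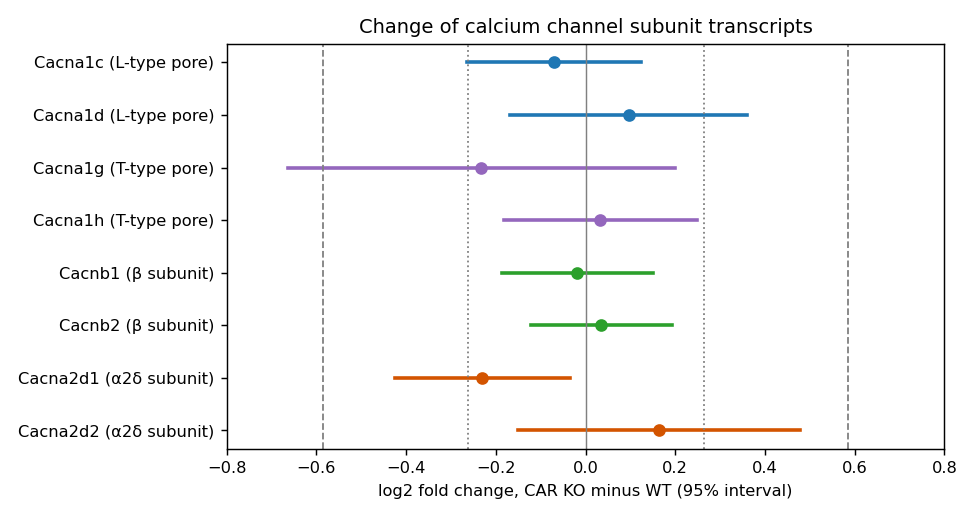
Log2 fold change (CAR KO minus WT, x axis) of the 8 channel genes (y axis, coloured by subunit class). Points are limma estimates from 5 CAR KO and 5 WT samples, bars their 95% intervals, and dotted and dashed lines mark 1.2-fold and 1.5-fold; the interval of Cacna2d1 (-0.43 to -0.03) alone leaves out 0, and that of Cacna1g (-0.66 to 0.20) alone passes the 1.5-fold line.

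The L-type pores come first. Cacna1c (chr6:118587240-119197384, GRCm38.p6) encodes the main L-type pore of ventricular muscle. Its log2 signal was 10.46, 10.47, 10.23, 10.42 and 10.15 in CAR KO samples 1 to 5, against 10.65, 10.33, 10.44, 10.41 and 10.26 in WT samples 1 to 5. The ranges lay over each other, with WT sample 1 the highest and CAR KO sample 5 the lowest. Means were 10.35 ± 0.15 in CAR KO and 10.42 ± 0.15 in WT hearts (SD, n = 5 each), a log2 fold change of -0.07 (standard error 0.09, interval -0.26 to 0.12, adjusted p = 1.0 in limma). The interval leaves out changes of 1.5-fold in either direction.

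Cacna1d (chr14:30039941-30491156) encodes the L-type pore that opens at lower voltages and contributes to pacemaking in the sinoatrial node. Its log2 signal was 8.73, 8.76, 8.71, 8.70 and 8.55 in CAR KO samples 1 to 5, against 8.95, 8.63, 8.70, 8.53 and 8.15 in WT samples 1 to 5. The CAR KO samples fell between the extremes of the WT samples, of which sample 1 was the highest and sample 5 the lowest of all 10. The mean was 8.69 ± 0.08 in CAR KO and 8.59 ± 0.29 in WT hearts (SD, n = 5 each), with a log2 fold change of 0.10 (interval -0.17 to 0.36). Without WT sample 5 it was -0.014. Within a sample, Cacna1d minus Cacna1c averaged -1.66 ± 0.09 in CAR KO and -1.82 ± 0.18 in WT hearts (SD, n = 5 each). The difference of 0.17 between these means is less than the WT SD, which measures single samples and not the means, and was not tested.

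**Figure D2:**
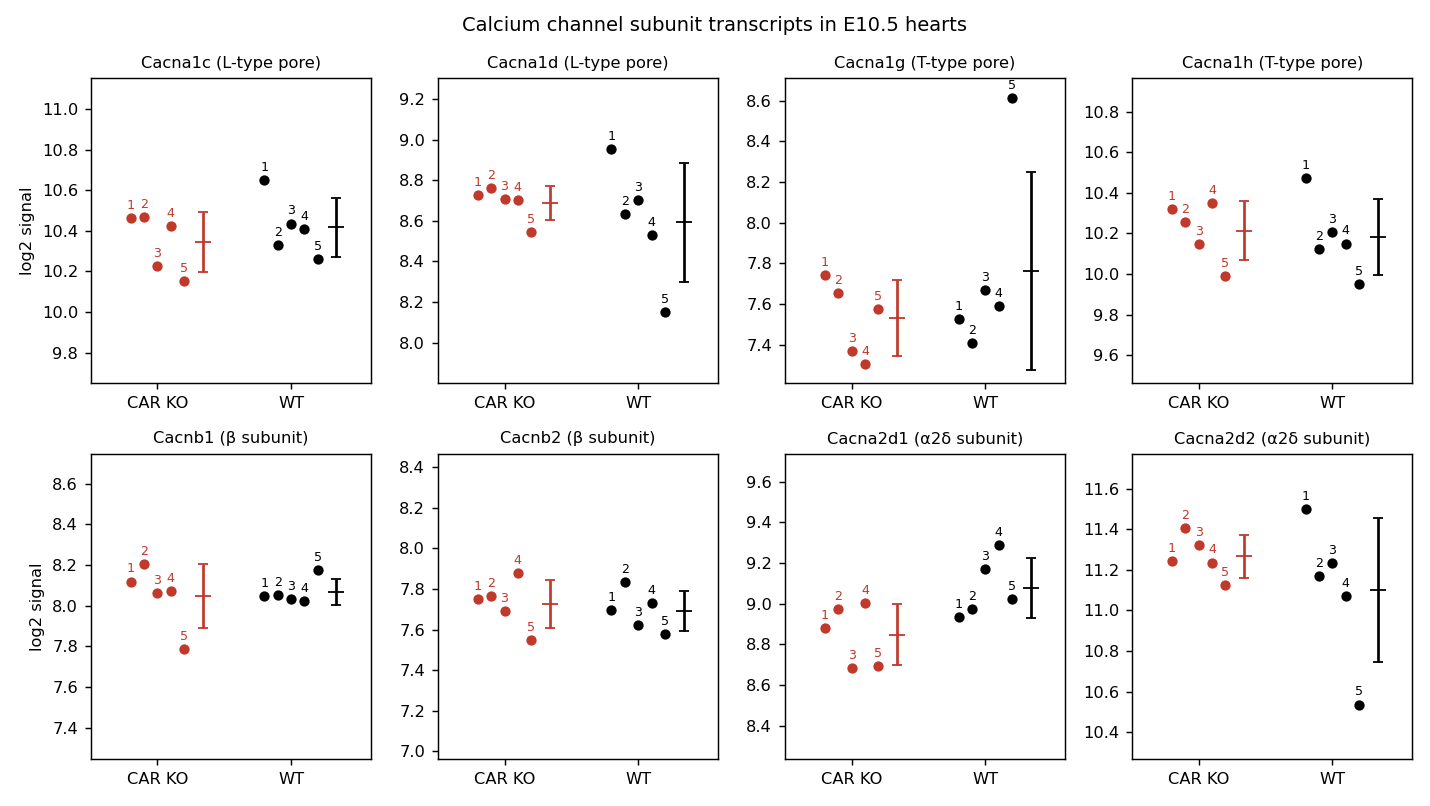
Log2 signal (y axis, each panel spanning its own range of levels) of the 8 channel genes in CAR KO (left, red) and WT (right, black) hearts. Points are samples with their number, and bars give the mean ± SD of 5 samples; the genotypes overlap in every panel, and WT sample 5 stands at 8.61 for Cacna1g, 8.15 for Cacna1d and 10.54 for Cacna2d2.

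Of the T-type pores, Cacna1h (chr17:25374285-25436334) had the narrower interval. Values were 10.32, 10.26, 10.15, 10.35 and 9.99 in CAR KO samples 1 to 5, against 10.47, 10.12, 10.21, 10.15 and 9.95 in WT samples 1 to 5. Sample 5 was the lowest of each genotype. Means of 10.21 ± 0.15 in CAR KO and 10.18 ± 0.19 in WT hearts (SD, n = 5 each) gave a log2 fold change of 0.03 (interval -0.18 to 0.25), inside 1.2-fold either way.

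Cacna1g (chr11:94408391-94474400), the other T-type pore, gave 7.74, 7.66, 7.37, 7.31 and 7.58 in CAR KO samples 1 to 5, against 7.53, 7.41, 7.67, 7.59 and 8.61 in WT samples 1 to 5. A single sample set the WT mean: WT sample 5 was 1.06 above the mean of the other WT samples, which lay in the range of the CAR KO samples. The means were 7.53 ± 0.19 in CAR KO and 7.76 ± 0.49 in WT hearts (SD, n = 5 each), and the log2 fold change of -0.23 (interval -0.66 to 0.20) became -0.019 without that sample. The neural crest markers, 5 of 6 measured and all 5 above background, had list means of 7.32 to 7.73 in CAR KO and 7.20 to 8.10 in WT hearts, and WT sample 5 exceeded the other WT samples by 0.77. That excess lay in 2 of the 5 genes, Tfap2b (2.43) and Tfap2a (1.34), while Sox10 (0.16), Erbb3 (0.04) and Foxd3 (-0.10) differed little. In CAR KO sample 5 Tfap2b and Tfap2a also exceeded the other CAR KO samples, by 1.56 and 1.08, where Cacna1g did so by 0.06. Of 10 neuronal markers 9 were measured and 6 were above background; the mean over these 6 was 7.83 to 8.01 in CAR KO and 7.86 to 8.22 in WT hearts, 0.31 higher in WT sample 5 than in the other WT samples. Of all 9, WT sample 5 was above the mean of the other WT samples for 6, by 1.21 for Stmn2, 0.92 for Nefm, 0.75 for Dcx, 0.62 for Nefl, 0.21 for Snap25 and 0.11 for Elavl4, and below it for Th, Tubb3 and Elavl3. The part of such transcripts in the Cacna1g value was not tested. Within a sample, Cacna1h minus Cacna1g averaged 2.68 ± 0.24 in CAR KO and 2.42 ± 0.62 in WT hearts (SD, n = 5 each). The difference of 0.26 is below the WT SD of single samples and was not tested.

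Among the β subunits, Cacnb1 (chr11:98001508-98023034) is best known as the β subunit of skeletal muscle. Its log2 signal was 8.12, 8.21, 8.06, 8.07 and 7.78 in CAR KO samples 1 to 5, against 8.05, 8.05, 8.03, 8.02 and 8.18 in WT samples 1 to 5. WT samples 1 to 4 were within 0.1 of each other, while CAR KO sample 5 was the lowest of all 10, 0.33 below the other CAR KO samples. The log2 fold change was -0.02 (interval -0.19 to 0.15) from means of 8.05 ± 0.16 in CAR KO and 8.07 ± 0.06 in WT hearts (SD, n = 5 each). The mean of the skeletal muscle markers (8 of 8 measured, 6 above background) moved with these samples. It was 0.38 below the other CAR KO samples in CAR KO sample 5 and 0.29 above the other WT samples in WT sample 5. In CAR KO sample 5 every gene of the list above background was at its lowest among CAR KO samples. In WT sample 5 Myod1 (8.01), Myog (7.82) and Ryr1 (6.98) were the highest of the WT samples. Acta1 (12.70) and Tnnt3 (9.22) were the lowest there, and Ckm (8.54) lay between. Of that list Myf5 and Chrna1 were not above background, and its part in the Cacnb1 values was not tested.

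Cacnb2 (chr2:14603861-14988811) encodes the main β subunit of the heart. Its row gave 7.75, 7.76, 7.69, 7.88 and 7.55 in CAR KO samples 1 to 5, against 7.69, 7.84, 7.62, 7.73 and 7.58 in WT samples 1 to 5. The ranges coincided almost entirely, and the log2 fold change was 0.04 (interval -0.12 to 0.19) from means of 7.73 ± 0.12 in CAR KO and 7.69 ± 0.10 in WT hearts (SD, n = 5 each). Whether this row reads the coding transcript was not tested. The annotation ties it to 1 accession, none from RefSeq, and 19 of its 20 neighbours by row number lie on the minus strand of chromosome 2 although Cacnb2 is on the plus strand. Of 853 rows examined in this way, 96.8% were on the strand of their neighbours.

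Among the α2δ subunits, Cacna2d1 (chr5:15934264-16374511) encodes the α2δ subunit that accompanies L-type channels in the heart and skeletal muscle. Its log2 signal was 8.88, 8.97, 8.68, 9.002 and 8.70 in CAR KO samples 1 to 5, against 8.93, 8.98, 9.17, 9.29 and 9.02 in WT samples 1 to 5. CAR KO samples 3 and 5 were below all others and WT samples 3, 4 and 5 above all CAR KO samples, with the remaining 5 between 8.88 and 9.002. Means were 8.85 ± 0.15 in CAR KO and 9.08 ± 0.15 in WT hearts (SD, n = 5 each), and the log2 fold change was -0.23 (standard error 0.09, interval -0.43 to -0.03). The unadjusted p was 0.0247 and the adjusted p 1.0 in limma, so the difference did not pass.

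A second row that names Cacna2d1 alone had means of 8.50 ± 0.14 in CAR KO and 8.74 ± 0.16 in WT hearts (SD, n = 5 each; log2 fold change -0.24, interval -0.44 to -0.05, adjusted p = 1.0 in limma). Both rows read the same RNA pools, so the second is no further replicate. Leaving out WT sample 3, WT sample 4, CAR KO sample 3 or CAR KO sample 5 brought the unadjusted p of Cacna2d1 above 0.05, with fold changes from -0.27 to -0.18 over all omissions. Transcripts of the epicardium differed in the same direction. There 7 of 7 markers were lower in CAR KO hearts, 3 of them (Upk3b, Upk1b and Aldh1a2) at an unadjusted p under 0.05 and 0 after adjustment in limma. Over all 19938 genes 9131 were lower, and 347 were lower at an unadjusted p under 0.05 (limma). Among the other lists, lower genes were 6 of 7 (blood), 5 of 6 (macrophage), 7 of 10 (endothelium and endocardium) and 11 of 16 (cardiomyocyte). They were 1 of 5 for the sinus node, 2 of 5 for neural crest and 3 of 9 for foregut epithelium. The list mean of the epicardium was 9.32 to 9.80 in CAR KO and 9.66 to 9.93 in WT hearts, and its part in the Cacna2d1 value was not tested. With the mean of the cardiomyocyte markers as a covariate, an alternative chosen after the data were seen, the fold change of Cacna2d1 was -0.22.

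Cacna2d2 (chr9:107399733-107529346) encodes the other α2δ subunit. The log2 signal was 11.24, 11.41, 11.32, 11.24 and 11.13 in CAR KO samples 1 to 5, against 11.50, 11.17, 11.23, 11.07 and 10.54 in WT samples 1 to 5. As for Cacna1d, WT sample 1 was the highest and WT sample 5 the lowest of all 10. Means were 11.27 ± 0.10 in CAR KO and 11.10 ± 0.35 in WT hearts (SD, n = 5 each), a log2 fold change of 0.16 (interval -0.15 to 0.48) that became 0.023 without WT sample 5. Cacna2d2 minus Cacna2d1 within a sample was 2.36, 2.43, 2.64, 2.23 and 2.43 in CAR KO samples 1 to 5, against 2.57, 2.20, 2.06, 1.78 and 1.52 in WT samples 1 to 5. WT sample 1 lay among the CAR KO samples and the other WT samples below all of them. The means were 2.42 ± 0.15 in CAR KO and 2.03 ± 0.40 in WT hearts (SD, n = 5 each). Their difference of 0.39 was about as large as the WT SD of single samples and was not tested.

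Set side by side, each subunit class held 1 gene with a higher and 1 gene with a lower mean in CAR KO hearts. The class medians of the log2 fold change were 0.013 for the L-type pores, -0.10 for the T-type pores, 0.0085 for the β subunits and -0.033 for the α2δ subunits. Without WT sample 5 they were -0.062, -0.022, 0.0080 and -0.11 in the same order, and both L-type genes were then lower in CAR KO hearts. With 2 genes in a class these medians are descriptions, and the classes were not tested against each other.

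Samples of one genotype also differed from each other. Among 18 groups of 5 samples (the 8 channel genes and Cxadr in either genotype) 3 held a sample far from the rest by Dixon's criterion, CAR KO sample 5 for Cacna1d and WT sample 5 for Cacna1g and Cacnb1, and over all genes above background 6.12% of groups did. To see which genes varied together, each value was taken as its difference from the mean of its genotype, and Pearson's r was computed over the 10 samples as a description. The samples share arrays, normalization and whole-heart composition, and for a gene above background the closest of the other genes had a median r of 0.971. Cacna1d and Cacna2d2 had r = 0.985 and were each the closest of 14687 other genes to the other. Without WT sample 5, r was 0.958, and Cacna2d2 was then number 5 for Cacna1d and Cacna1d number 3 for Cacna2d2. A best r lower than theirs was found for 78.6% of genes, so theirs is not the extreme. For Cacna1c the closest gene was Cacna1h, with r = 0.949 over all samples and 0.945 without WT sample 5, when it was number 8. Cacna1c was number 4 for Cacna1h over all samples and number 9 without WT sample 5. Only 21.7% of genes had a best r lower than that of Cacna1c.

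**Figure D3:**
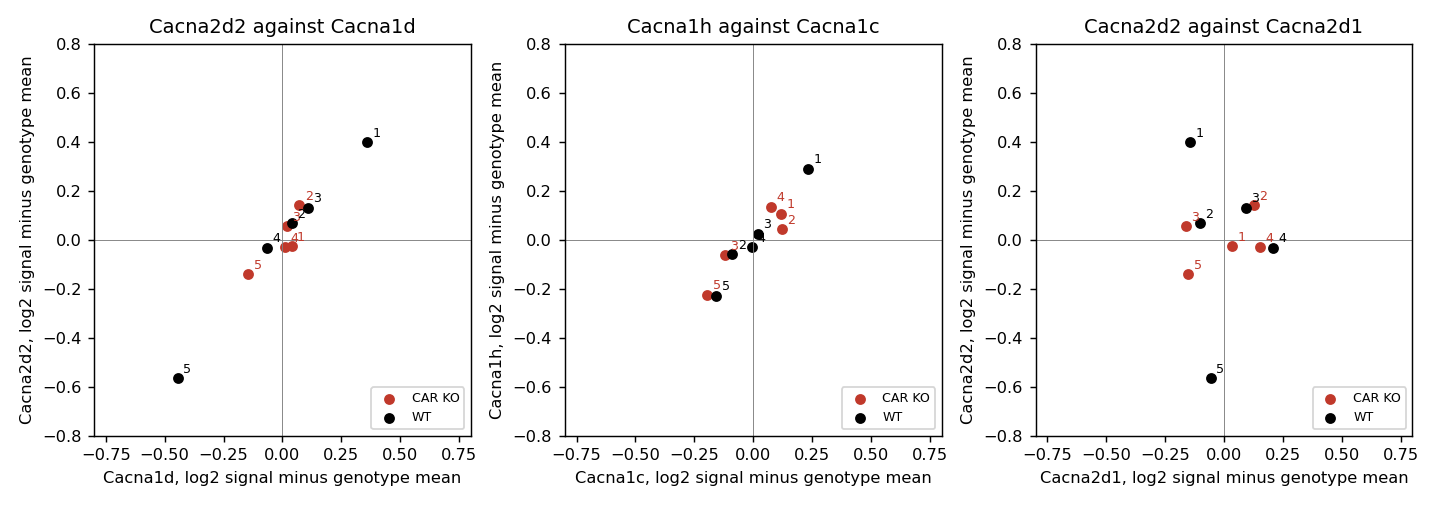
Deviation of each sample from the mean of its genotype (log2 signal, both axes) for 3 pairs of channel genes, in CAR KO (red) and WT (black) samples numbered 1 to 5. Cacna2d2 follows Cacna1d (r = 0.985) and Cacna1h follows Cacna1c (r = 0.949), while the α2δ genes Cacna2d2 and Cacna2d1 do not follow each other (r = -0.01).

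Of the 28 pairs among the 8 genes, 5 had r over 0.7, and 5 did without WT sample 5; 10 pairs were below 0 and the median was 0.37. The pairs over 0.7 joined Cacna1c, Cacna1d, Cacna1h and Cacna2d2. Cacna1g ran opposite to Cacna1d (r = -0.74) and to Cacna2d2 (r = -0.78) over all samples, which rested on WT sample 5: without it r was 0.01 and 0.0017. The 2 α2δ genes had r = -0.01.

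The genes closest to each channel gene, by the same measure, were as follows. Cacna1d and Cacna2d2 shared Stx3, a syntaxin of vesicle fusion, among their first 3 (r = 0.955 and 0.936), joined by A730020M07Rik for Cacna1d and by Fbxo32, a muscle ubiquitin ligase subunit, for Cacna2d2. After Cacna1h, Cacna1c was followed by Map1a, a microtubule-associated protein, and Mical3 (r = 0.947 and 0.945). The sarcomere gene Ttn led for Cacna1h (r = 0.959), before Radil and Plekha7. Cacna1g had the FGF receptor gene Fgfr1 (r = 0.979), the homeobox gene Six2 and the auxiliary γ subunit gene Cacng4 (r = 0.969), all with WT sample 5 in the comparison. Cacnb1 had Rflna, the channel adaptor gene Stac2 (r = 0.941) and Dgat1, and Cacna2d1 had Htra1, a secreted protease (r = 0.960), Adcy3 and Acadvl. The row of Cacnb2 had Pdzd7 (r = 0.995), Npas1 and Trpm2, a best r above that of 99.2% of genes.

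Set against marker lists, the deviations of the channel genes differed from gene to gene. With the mean of the cardiomyocyte markers r was 0.82 for Cacna1h, 0.78 for Cacna1c, 0.73 for Cacnb2, 0.71 for Cacna1d, 0.68 for Cacna2d2, 0.52 for Cacna2d1, 0.50 for Cacnb1 and -0.54 for Cacna1g over the 10 samples. Without WT sample 5 it was 0.91 for Cacnb1, -0.06 for Cacna1g and between 0.46 and 0.74 for the other 6. For some genes another list was closer. With the smooth muscle mean r was 0.79 for Cacna2d2 (0.70 without WT sample 5) and 0.74 for Cacna1d (0.57 without it). For Cacnb2 it was 0.86 with the endothelium and endocardium mean (0.83 without WT sample 5). For Cacnb1 it was 0.88 with the skeletal muscle mean. Without WT sample 5 it was again 0.88 there, but the cardiomyocyte mean was then closer to Cacnb1 (0.91). Cacna1g had r = 0.88 with the neural crest mean and 0.79 with the neuronal mean, or 0.42 and 0.17 without WT sample 5. Cacna2d1 had r = 0.58 with the epicardium mean (0.57 without that sample). The cushion mesenchyme mean ran opposite to Cacna1d (r = -0.85), Cacna1h (r = -0.85) and Cacna2d2 (r = -0.84), and without WT sample 5 these were -0.73, -0.78 and -0.71. In CAR KO sample 5 and WT sample 5, Prrx1 of that list was the highest of its genotype (10.45 and 10.30) and Vcan the lowest (12.30 and 12.41). Other lists also ran opposite: the neural crest mean to Cacna1d (r = -0.85) and Cacna2d2 (r = -0.84), or -0.49 and -0.39 without WT sample 5. The same mean ran opposite to Cacna1h (r = -0.76) and Cacnb2 (r = -0.75), or -0.70 and -0.87 without that sample. For Cacna1h r was -0.77 with the foregut epithelium mean and -0.74 with the macrophage mean, or -0.68 and -0.62 without that sample. For Cacnb2 r was -0.82 and -0.86 with these 2 means, or -0.77 and -0.84 without it. The marker lists were all measured on the same arrays as the channel genes, and what they share with them was not tested.

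**Figure D4:**
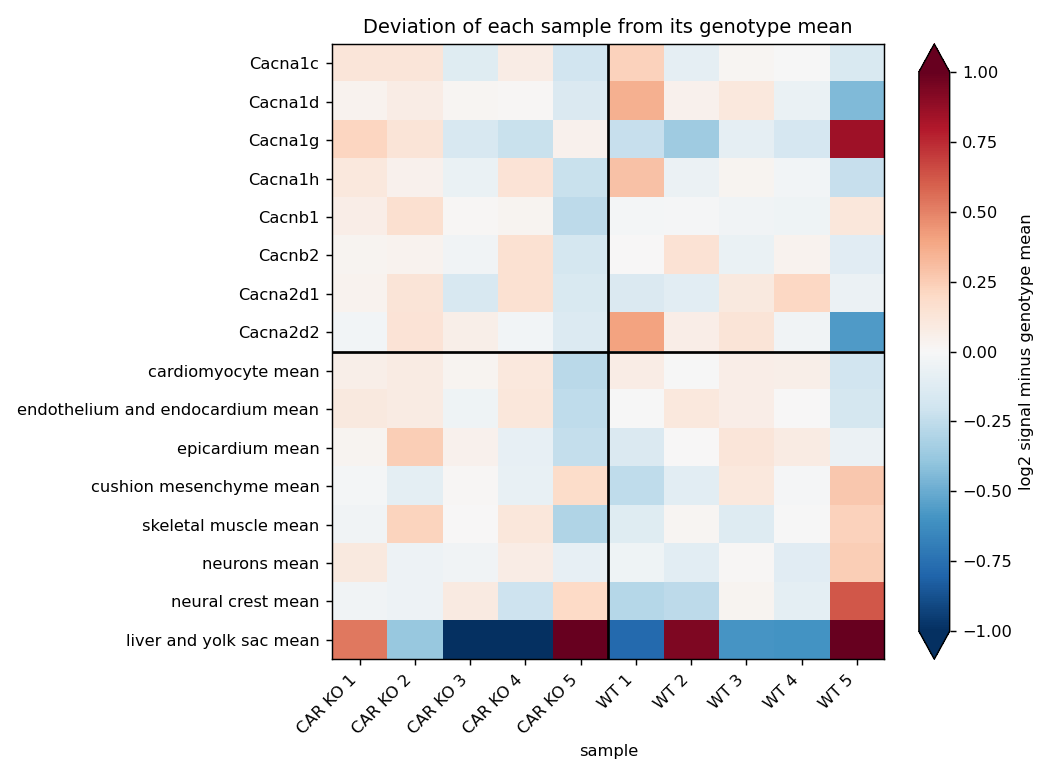
Deviation of each sample from the mean of its genotype (colour, log2 signal, cut at 1 in either direction) for the 8 channel genes and 8 marker list means (rows), in CAR KO samples 1 to 5 and WT samples 1 to 5 (columns). WT sample 5 is high in Cacna1g and in the neural crest mean and low in Cacna1d and Cacna2d2, and CAR KO sample 5 is low in most channel genes and in the cardiomyocyte mean.

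No other gene of the channel family passed the adjusted threshold. Of 17 further pore, β, α2δ and γ subunit genes 16 were measured and 12 were above background; 10 had a higher and 6 a lower mean in CAR KO hearts (limma), with a median log2 fold change of 0.02. At an unadjusted p under 0.05 (2.4% of all rows in limma) stood Cacna1s, the L-type pore of skeletal muscle. It read 7.49, 7.66, 7.46, 7.72 and 7.39 in CAR KO samples 1 to 5, against 7.40, 7.28, 7.33, 7.21 and 7.01 in WT samples 1 to 5. The genotypes touched only where WT sample 1 exceeded CAR KO sample 5. The log2 fold change was 0.30 (standard error 0.09, interval 0.11 to 0.49), with an unadjusted p of 0.00517 and an adjusted p of 1.0 in limma. Also named by rule are the neuronal γ subunit genes Cacng7 (log2 fold change -0.08, interval -0.62 to 0.45) and Cacng2 (0.08, interval -0.13 to 0.29). Cacng7, with 9.82 in WT sample 5 and 8.35 to 8.91 in the other WT samples, was the gene of the list whose interval passed 1.5-fold.

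Proteins that bind or modify the channels were followed in a list of 29 regulators, among them the RGK GTPases, calmodulins, kinases and anchoring proteins. Of these 24 were measured and 23 were above background, 13 with a higher and 11 with a lower mean in CAR KO hearts (median 0.0091). None passed the adjusted threshold in limma. All 24 intervals lay within 1.5-fold, as did those of 19429 of all 19938 genes. Rem2, an RGK GTPase that inhibits high-voltage calcium channels, stood at an unadjusted p of 0.0161, where 2.4% of all rows were under 0.05 (limma). It gave 7.95, 7.98, 8.29, 8.05 and 8.01 in CAR KO samples 1 to 5, against 7.71, 7.80, 7.92, 7.96 and 7.83 in WT samples 1 to 5, a log2 fold change of 0.21 (interval 0.05 to 0.38, adjusted p = 1.0 in limma). CAR KO sample 1 was just below WT sample 4 and the other CAR KO samples above every WT sample. Also named by rule are the calmodulin genes Calm2 (log2 fold change 0.03, interval -0.10 to 0.16) and Calm3 (-0.06, interval -0.18 to 0.05), which encode the calcium sensor bound to the L-type pores.

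Downstream of the channels, 12 of 14 genes of calcium release, storage and removal were measured, all above background, with 6 higher and 6 lower in CAR KO hearts and a median log2 fold change of -0.0092. None had an unadjusted p under 0.05 in limma (2.4% of all rows did), and 1, Casq2, did in 4 of the alternatives. Atp2a2, the calcium pump SERCA2 of the sarcoplasmic reticulum, gave 13.31 ± 0.10 in CAR KO and 13.29 ± 0.15 in WT hearts (SD, n = 5 each; log2 fold change 0.02, interval -0.16 to 0.19). Calr, a calcium-binding chaperone of the endoplasmic reticulum, gave 12.81 ± 0.05 in CAR KO and 12.80 ± 0.05 in WT hearts (SD, n = 5 each; log2 fold change 0.0026, interval -0.11 to 0.11). One gene, Casq2, the calcium-binding protein of the cardiac sarcoplasmic reticulum and named after its value was seen, had an interval beyond 1.5-fold (-0.35, interval -0.79 to 0.08). It gave 9.25, 9.50, 9.004, 9.38 and 8.37 in CAR KO samples 1 to 5, against 9.08, 9.51, 9.55, 9.80 and 9.33 in WT samples 1 to 5, so that CAR KO sample 5 was the lowest by a wide margin. Its unadjusted p was 0.0986, and it was 0.0361 with array weights, 0.0385 with the sample number as a block, 0.0447 without CAR KO sample 2 and 0.0419 with the cardiomyocyte mean as a covariate, with an adjusted p of 0.775 or above in each (limma). In the other 18 alternatives, the omission of CAR KO sample 5 among them, it was not under 0.05 (limma or the methods' t-test).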

How the data were processed

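Log2 signals were deposited by the authors as 1 table of 35556 rows and 10 samples. They were used as deposited. MAS5 is the tool in the submitters' processing notes; how the table was made from the scans is not stated there. After 6612 control rows were left out, 28944 rows were compared between 5 CAR KO and 5 WT samples by linear models with moderated variances (lmFit, eBayes; limma 3.58.1, R 4.3.3), with Benjamini-Hochberg adjustment over every row and a threshold of 0.05. Gene names come from the platform annotation, in which 21789 rows name 1 gene, 1621 several genes and 5534 none; the last 2 kinds name no gene here. Coordinates and promoter windows come from RefSeq tables for GRCm38.p6. Background was the 95th percentile of 1205 receptor rows. No 2 samples held equal values (correlations of 0.987 to 0.998). The number of arrays limits the precision.

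Named in the text are the channel genes and Cxadr, from each list of related genes those above background with an unadjusted p under 0.05 and the 2 of highest signal (a rule of choice, not a ranking of abundance), and for each channel gene the 3 genes closest to it; markers are named where a result turns on them. The genes and lists were chosen with earlier results of these data known. Alternatives were quantile normalization, centring on medians, a filter on dim rows (40th percentile), only rows naming 1 gene, a robust prior with a trend, the methods' t-test, weights per array, a block for the sample number, another row of the gene and the omission of each sample. Covariates for cardiomyocyte or liver markers and the omission of samples by Alb or by cardiomyocyte markers were added after the data were seen. The procedure was tested on simulated data with rows drawn independently, so the test does not cover differences that many genes of a sample share. Figures were drawn with matplotlib 3.10.9. Cell culture, blot and qRT-PCR experiments of the study were not used here.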

Additional observations from a re-analysis of the deposited data

Results flagged for a closer look

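Of 18 groups of 5 samples examined, 3 held a sample whose gap to its nearest neighbour took up more of the group's range than the critical 0.71. Chance flags about 1 group in 20, or 0.9 of 18, and over all genes above background 6.12% of groups were of this kind. In the WT samples, sample 5 was the highest for Cacna1g (8.61, gap of 0.782 of the range) and for Cacnb1 (8.18, gap of 0.807 of the range). In the CAR KO samples, sample 5 was the lowest for Cacna1d (8.55, gap of 0.725 of the range).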

How the results depend on the processing

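In the 22 alternatives run on all results, 0 of the 8 channel genes passed the adjusted threshold in limma or in the methods' t-test, and Cacna1c, Cacna1g, Cacna2d1 and Cacna2d2 kept the direction of their fold change, though not its size. Cacna1c ranged from -0.11 to -0.012 and Cacna2d2 from 0.023 to 0.26 over omissions of single samples, Cacna1g was -0.074 with array weights and -0.031 without the samples lowest in cardiomyocyte markers, and Cacna2d2 was 0.033 without the samples highest in Alb. The other 4 genes turned their sign in at least 1. Over the omissions of single samples the log2 fold change lay between -0.014 and 0.19 for Cacna1d, between -0.024 and 0.11 for Cacna1h, between -0.058 and 0.048 for Cacnb1 and between -0.0020 and 0.079 for Cacnb2. Without the 3 samples highest in Alb (CAR KO 5, WT 2 and WT 5) it was -0.0019 for Cacna1d, -0.0069 for Cacna1h and 0.080 for Cacnb1. For Cacnb1 it was 0.050 with array weights and 0.075 without the sample lowest in cardiomyocyte markers of each genotype (CAR KO 5 and WT 5). The count of channel genes at an unadjusted p under 0.05 ranged from 0 to 1 over the omissions, and was 0 without the samples lowest in cardiomyocyte markers. With array weights 2 rows were called, Cxadr and a row without a name, in place of 1. The median of the T-type pores was 0.0030 with array weights. The cause of these changes was not tested. At an unadjusted p under 0.05 stood 696 rows, against 1811 with array weights, 1137 with the cardiomyocyte mean as a covariate, 1214 without the samples highest in Alb and 411 without WT sample 4.

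Samples of equal number are not said to share a litter. The deviations of same-numbered samples correlated at 0.20, 0.47, 0.33, 0.07 and 0.56 for numbers 1 to 5, all positive. For 4 of the 5 CAR KO samples the WT sample of that number was the closest, a hint from these data only. Whether the numbers pair the samples was not tested. With a replicate block for the number, 0 channel genes were called and Cacna2d1 had an adjusted p of 0.969 in limma. The called row was again 1, and 1304 rows stood at an unadjusted p under 0.05, against 696 without the block (limma). The 8 channel genes were above background in all 10 samples, and the number of arrays limits their precision.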
